A study of Mus musculus with 6 samples.

Results

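The 34 genes described here make, fold, ship, trim and crosslink fibrillar collagen. They were taken by gene symbol from the 25746 genes of a mouse RNA-seq count table, and all 34 symbols were found there. They fall into 5 roles: 14 hydroxylases and glycosyltransferases with their partner subunits, 4 chaperones, 3 export factors, 7 genes of propeptide processing and 6 of crosslinking. The samples were mouse cardiac fibroblasts with Acta2 deleted (KO) or intact (WT): 2 RNA-seq libraries of each genotype, and 1 of each for ATAC-seq, which maps open chromatin.

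Acta2 encodes smooth muscle alpha-actin, the actin isoform by which activated fibroblasts, called myofibroblasts, are usually recognised. Per the labels' protocols, fibroblasts came from WT mice and from Acta2fl/fl mice, whose Acta2 gene is flanked by sites for Cre recombinase. Cells of both genotypes received Adeno-Cre, a virus that delivers Cre, and then TGFβ, the main cytokine that activates fibroblasts, for 2 days. The labels also give "in vivo" as the growth condition and describe a second scheme. In it, a tamoxifen-inducible MerCreMer was activated at 75 mg/kg/day for 5 days from 6 weeks of age. Tamoxifen was given again from 1 day before to 5 days after myocardial infarction, which was made at 9 weeks by tying off the left coronary artery, and eGFP+ cells of the Tcf21 lineage were sorted. The labels do not say for each library which scheme its cells came from, and the gene that drives MerCreMer is not given in the sources used here. No label says that the 2 libraries of a genotype came from separate mice or cultures, so p-values measure the spread between libraries, which may be technical. In bulk libraries, fewer cells expressing a gene and less RNA per cell cannot be told apart.

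Collagen chains are modified while they are made. In the endoplasmic reticulum (ER), prolines and lysines are hydroxylated, sugars are added to some hydroxylysines, and chains join into a triple helix with the help of dedicated chaperones. Procollagen is too large for ordinary COPII vesicles, the coated carriers that leave the ER, and needs the adaptor encoded by Mia3. Outside the cell, proteases remove the propeptides at both ends, the trimmed molecules assemble into fibrils, and lysyl oxidases start the crosslinks that make scar tissue stiff.

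The KO RNA-seq libraries totalled 11370115 and 10864365 estimated counts, those of WT 8429166 and 9096811. Acta2, the targeted gene, was at 256 and 265 CPM, a count scaled to a common library size, in KO and at 2186 and 2200 in WT, so KO libraries held 11.9% of the WT level. Libraries of 1 genotype differed by more than sampling noise (chi-square per degree of freedom 1.99 in KO and 1.77 in WT) and by far less than libraries of different genotypes (17.4 to 18.1). All 8 fibroblast markers were detected, of which 5 were lower and 1 was higher in KO, summing to 2824 and 2806 CPM in KO libraries and to 3294 and 3174 in WT libraries. Tcf21, the gene whose lineage marked the sorted cells, was at 5.61 and 6.84 CPM in KO and 10.9 and 11.1 in WT. Of 12 macrophage markers, 6 of the 9 tested were higher in KO and 0 were lower; their sum was 181 and 182 CPM in KO and 104 and 100 in WT, with Fcgr1 at 0 in every library. Of 10 endothelial markers, 7 were higher and 1 was lower in KO, with sums of 147 and 159 against 117 and 111 CPM. Of 8 pericyte and smooth muscle markers 6 were tested, and Kcnj8 and Abcc9 were too low to test. On the log2 scale 3 were higher (Myh11 2.99, Lmod1 2.04, Mcam 1.10) and 3 lower (Steap4 -1.15, Rgs5 -0.60, Cspg4 -0.58). The list thus moved in both directions, with sums of 86.4 and 93.2 CPM in KO against 58.3 and 60.7 in WT. Of 6 mesothelial markers 4 were lower and 1 was higher, with sums of 273 and 264 against 272 and 268 CPM. By the test given below, 18.3% of all tested genes were higher and 17.4% lower in KO. What part the marker shifts have in the results for the members was not tested. Of 7 cardiomyocyte markers only Tnnt2 reached a testable level, and Nppa and Pln were at 0.

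Promoters of 3 members are shown because they precede the most abundant member (Serpinh1) and the major and the minor catalytic subunit of prolyl 4-hydroxylase (P4ha1 and P4ha3), whose messages moved in different directions or by different amounts. Each is the 250 bases before the annotated start from RefSeq for GRCm38.p6, the assembly also called mm10, written 5′ to 3′ on the gene's strand. Capitals mark the letters ACGTG, the core to which hypoxia-inducible factors bind, or their reverse complement CACGT.
Serpinh1, chr7:99353240-99353489, minus strand: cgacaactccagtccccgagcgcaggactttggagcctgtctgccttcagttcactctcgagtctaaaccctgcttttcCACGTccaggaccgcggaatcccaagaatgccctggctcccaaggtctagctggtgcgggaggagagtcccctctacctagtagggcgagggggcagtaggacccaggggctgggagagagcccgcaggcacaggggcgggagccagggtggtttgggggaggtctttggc
P4ha1, chr10:59323046-59323295, plus strand: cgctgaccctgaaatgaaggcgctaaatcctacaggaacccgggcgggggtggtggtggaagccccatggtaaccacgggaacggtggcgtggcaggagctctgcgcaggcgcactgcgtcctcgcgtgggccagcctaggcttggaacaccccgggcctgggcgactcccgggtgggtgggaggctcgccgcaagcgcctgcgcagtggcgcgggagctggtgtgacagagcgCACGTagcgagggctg
P4ha3, chr7:100285270-100285519, plus strand: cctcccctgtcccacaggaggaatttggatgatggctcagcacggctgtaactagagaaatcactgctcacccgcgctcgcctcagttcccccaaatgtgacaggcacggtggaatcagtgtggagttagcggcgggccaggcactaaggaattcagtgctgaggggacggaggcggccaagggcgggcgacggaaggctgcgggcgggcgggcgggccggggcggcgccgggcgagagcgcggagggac
The Serpinh1 and P4ha1 stretches each hold 1 match and the P4ha3 stretch holds none.

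Between genotypes, 16 of the 32 members that could be tested passed the threshold (edgeR quasi-likelihood test, Benjamini-Hochberg adjusted p under 0.05), which is 50% of them, where 35.7% of all 12192 tested genes passed. In KO, 6 members rose (18.8%, against 18.3% of all tested genes) and 10 fell (31.2%, against 17.4%). The risers were Serpinh1, Tgm2, Tll1, Loxl4, Plod1 and Fkbp10. Those that fell were P4ha3, Adamts2, Fkbp14, Lox, Pcolce, Sec23a, Plod2, Sec24d, P4ha1 and P4hb. Among members that passed, 12 moved by less than 1.5-fold. At least 2-fold changes were called for 3 of the 32 members and for 610 (5%) of all tested genes. The median absolute log2 fold change was 0.31 for members that passed and 0.40 for all genes that passed. With sign, the median of the 32 tested members was -0.06, against 0.00 for all tested genes. KO and WT libraries did not overlap for 26 of the 32 (81.2%), against 67.1% of all tested genes. The 16 members that did not pass had log2 fold changes from -0.34 to 0.12. Colgalt2 and Adamts3, with 1 to 5 counts in any library, were too low to test. The share of genes that pass also depends on level: at a minimum count of 50, 40.2% of 9755 genes and 16 of 31 members passed. Members were not compared with genes of like level. How many members passed depended on the spread assumed between libraries: the spread fitted to these pairs was narrow, a biological coefficient of variation of 0.0311, and with 0.1 assumed instead, 5 of the 16 still passed.

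**Figure D1:**
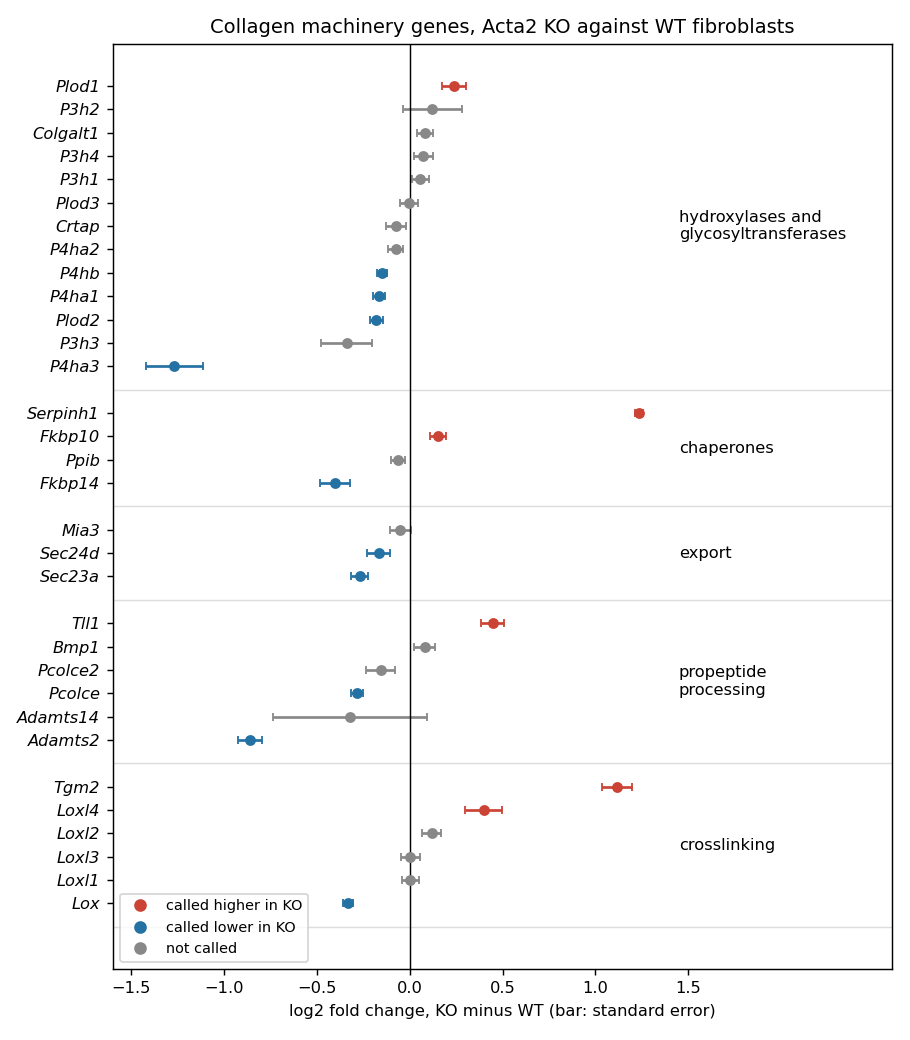
The log2 fold change of each tested member, KO over WT, grouped by role, with bars of 1 SE; colour marks members that passed the test (called) higher or lower in KO and those that did not. Serpinh1 and Tgm2 stand at 1.24 and 1.12, P4ha3 and Adamts2 at -1.27 and -0.86, and most others lie close to 0.

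Among hydroxylases and glycosyltransferases, 1 of 13 tested rose, 4 fell and 8 did not pass (median log2 fold change -0.07). Their share past the threshold, 38.5%, was close to the 35.7% of all tested genes (18.3% higher and 17.4% lower). Prolyl 4-hydroxylase, whose product 4-hydroxyproline keeps the triple helix stable at body temperature, is built of a catalytic alpha subunit (P4ha1, P4ha2 or P4ha3) and a beta subunit, the protein disulfide isomerase encoded by P4hb. P4ha3 had the largest fall of any member. The gene (ENSMUSG00000051048, chr7:100285520-100319699, plus strand, 14 exon blocks) was at 7.54 and 7.48 CPM in KO libraries, against 16.5 and 19.6 in those of WT, for a log2 fold change of -1.27 with SE 0.15 (adjusted p = 2.29e-07). Both KO libraries held less than either WT library, and the KO mean was 41.6% of the WT mean. The counts behind this were 82 and 86 in KO and 138 and 177 in WT.

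P4ha1, the major alpha subunit, was at 516 and 515 CPM in KO, against 567 and 590 in WT. It thus fell to 89.1% of WT. P4hb followed a similar course, at 1068 and 1045 CPM in KO against 1179 and 1164 in WT, or 90.2% of WT. P4ha2 did not pass the test, at 261 and 253 CPM in KO and 275 and 267 in WT. Because levels of different genes can be compared only per length, the subunits were also expressed as CPM per kilobase of exon. On that scale P4ha1 made up 73.6 to 74.5% of the summed alpha subunits over all libraries, while P4ha3 went from 2.82 and 3.24% in WT to 1.42 and 1.42% in KO. The ratio of beta to summed alpha message stayed between 2.11 and 2.20 in all 4 libraries.

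Lysyl hydroxylases supply the hydroxylysines that are glycosylated and that enter mature crosslinks. Plod2, which acts on the telopeptides at the ends of the chain, was the most abundant of the 3 and fell, from 615 and 640 CPM in WT to 538 and 569 CPM in KO. Plod1, which acts on the helical part of the chain, rose, from 65.1 and 66.8 CPM in WT to 81.1 and 74.6 in KO. Plod3, a multifunctional enzyme that also adds sugars, was at 174 to 183 CPM in every library, and the genotypes overlapped. Per length, the share of Plod1 in the summed family was 7.86 and 7.10% in KO against 5.91 and 5.85% in WT, and the share of Plod2 was 65.5 and 68.0% against 70.0 and 70.3%. Plod1 lost its call without KO replicate 1 (adjusted p = 0.137, at a log2 fold change of 0.17 in place of 0.24) and with DESeq2 (adjusted p = 0.11).

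Prolyl 3-hydroxylases modify a few prolines per chain. P3h1 works in a complex with Crtap and the cyclophilin encoded by Ppib, and P3h4 (also called Sc65) belongs to a related ER complex with P3h3. None of P3h1, P3h2, P3h3, P3h4 and Crtap passed the test. P3h1 was at 208 and 202 CPM in KO and 194 and 200 in WT, and Crtap was at 91.6 and 93.1 CPM in KO and 99.2 and 95.3 in WT. Per length, P3h1, P3h4 and Crtap were level with each other, with genotype means of 50.1 to 54.9 CPM per kilobase. P3h3, at 14.5 and 12.4 CPM in KO and 16.9 and 17.3 in WT, lay just outside the threshold (log2 fold change -0.34, adjusted p = 0.0567), and without KO replicate 1 it passed as lower (-0.47, adjusted p = 0.030). P3h2, the smallest contributor, was at 9.47 to 11.1 CPM, and 28.4% of its exon bases overlap Gm4524 on the opposite strand. Colgalt1, which adds galactose to hydroxylysine, did not pass either, at 225 and 222 CPM in KO and 214 and 209 in WT, and Colgalt2 had 2 to 5 counts in any library.

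Chaperones included the most abundant member and the strongest increase. Serpinh1 encodes HSP47, an ER-resident serpin that binds the folded procollagen triple helix and is released after export. The gene (ENSMUSG00000070436, chr7:99345376-99353239, minus strand, 6 exon blocks) was at 4637 and 4493 CPM in the KO libraries, against 1946 and 1930 in those of WT. Both KO libraries were thus far above both WT libraries, and replicates differed by little. The change was 2.36-fold (log2 fold change 1.24, SE 0.02, adjusted p = 2.38e-26). Per length, Serpinh1 ranked 12th of 12190 tested genes in KO and 49th in WT, at 1868 ± 41.7 against 793 ± 4.88 CPM per kilobase (SD, n = 2 each). Its exons share no 100-base window with another gene and overlap no other gene in the GENCODE M21 annotation.

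The other chaperones moved by less than Serpinh1. Fkbp10, encoding the collagen-binding peptidyl-prolyl isomerase FKBP65, rose to 241 and 249 CPM in KO from 215 and 226 in WT, 1.11-fold; its adjusted p was 0.0655 without KO replicate 2, 0.123 without WT replicate 1 and 0.0795 with DESeq2. Fkbp14, a related ER isomerase with the product FKBP22, fell, from 49.8 and 46.7 CPM in WT to 35.8 and 37.1 in KO (log2 fold change -0.40, SE 0.08, adjusted p = 3.15e-04). Ppib, the cyclophilin of the P3h1 complex, did not pass, at 402 and 393 CPM in KO and 426 and 404 in WT. The 4 chaperones thus divided into 2 that rose, 1 that fell and 1 that did not pass. That is 75% past the threshold, on few genes, against 35.7% of all tested genes.

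No export gene rose and 2 of 3 fell, where 18.3% of all tested genes rose and 17.4% fell. A set of 3 genes gives no direction for the role. Sec23a and Sec24d encode the inner-coat pair of COPII that patients and animal models link to procollagen export. Sec23a was at 140 and 144 CPM in KO and at 171 CPM in both WT libraries (log2 fold change -0.27, SE 0.05, adjusted p = 5.98e-05). Sec24d was at 68.4 and 71.1 CPM in KO and 79.6 and 77.2 in WT. It lay just inside the threshold, with an adjusted p of 0.0361, and lost its call when any single library was left out, with adjusted p from 0.0534 to 0.207, and also with DESeq2 (0.246), library size only (0.0683) and no filter on low counts (0.0574). Mia3, whose product TANGO1 packs procollagen into COPII carriers, did not pass and its genotypes overlapped, with 90.6 and 90.1 CPM in KO and 90.4 and 96.7 in WT.

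Propeptide processing split by protease. Adamts2, the main procollagen N-propeptidase (ENSMUSG00000036545, chr11:50602084-50807573, plus strand), was at 49.5 and 48.3 CPM in KO, against 89.0 and 88.4 in WT. Libraries of a genotype were close together, and KO held 55.1% of the WT mean (log2 fold change -0.86, SE 0.07, adjusted p = 2.80e-11). It supplied 92.1 to 96.1% of the per-length message of the 3 N-propeptidases in each library. The others were scarce: Adamts14 had 11 to 23 counts and did not pass, with overlapping genotypes, and Adamts3 had 1 to 4 counts. The summed N-propeptidase message per length was 5.76 and 5.38 CPM per kilobase in KO against 9.94 and 9.95 in WT.

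The C-propeptide is removed by tolloid proteases. Bmp1, the founding member, did not pass (94.7 and 90.2 CPM in KO, 90.5 and 84.6 in WT). Its relative Tll1 rose, from 74.5 and 71.6 CPM in WT to 95.5 and 103 in KO (log2 fold change 0.45, SE 0.06, adjusted p = 1.39e-06). Tll1 was thus 53.5 and 56.7% of the summed per-length tolloid message in KO and 48.5 and 49.2% in WT. Pcolce, a secreted enhancer that speeds cleavage by these proteases, fell, from 728 and 713 CPM in WT to 598 and 586 in KO (log2 fold change -0.28, SE 0.03, adjusted p = 5.26e-08). Its per-length ratio to Bmp1 plus Tll1 went from 9.62 and 9.93 in WT to 6.81 and 6.52 in KO. The second enhancer, Pcolce2, did not pass at 45.8 and 49.8 CPM in KO and 49.9 and 56.5 in WT, but passed as lower without WT replicate 1 (log2 fold change -0.24, adjusted p = 0.031).

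**Figure D2:**
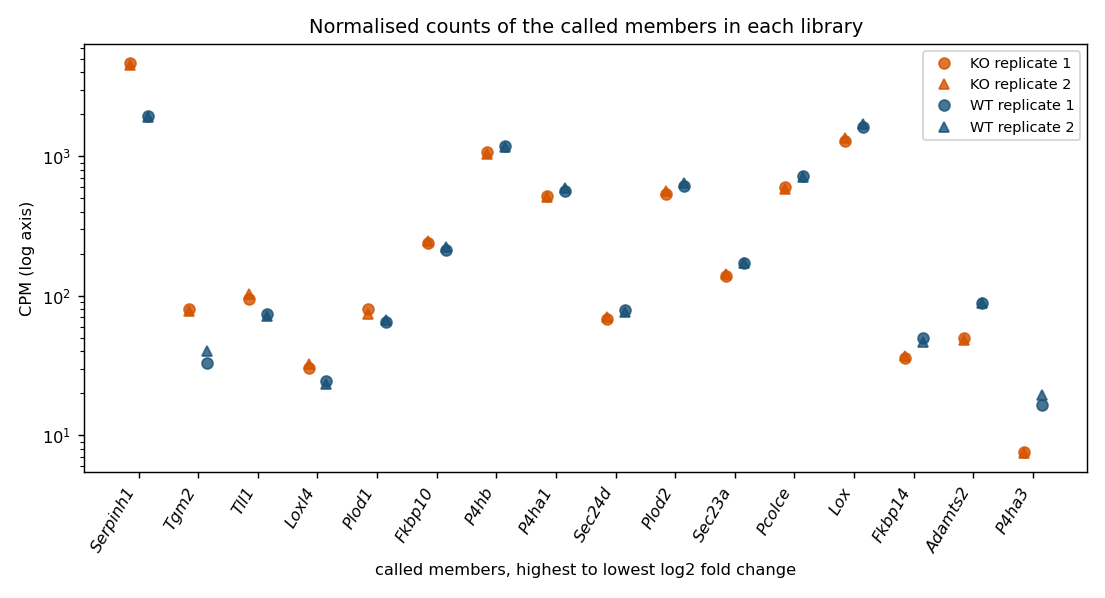
CPM of each member that passed the test, on a log axis, with 1 point per library. The 2 points of a genotype lie close together for most genes, and the widest gaps between genotypes are those of Serpinh1, Tgm2, P4ha3 and Adamts2.

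Among crosslinking genes, 2 rose, 1 fell and 3 did not pass, so that 50% passed, on few genes, against 35.7% of all tested genes. Lox, the canonical lysyl oxidase, was at 1285 and 1364 CPM in KO, against 1628 and 1709 in WT (log2 fold change -0.33, SE 0.03, adjusted p = 4.12e-10). Both WT libraries were above both KO libraries, and the KO mean was 79.4% of WT. Loxl4, a scarcer paralog with scavenger-receptor domains, rose from 24.3 and 23.3 CPM in WT to 30.5 and 32.3 in KO (log2 fold change 0.40, SE 0.10, adjusted p = 2.84e-03); DESeq2 did not call it (adjusted p = 0.0792). Loxl1, Loxl2 and Loxl3 did not pass. Loxl1 was at 199 to 208 CPM and Loxl3 at 124 to 130 CPM, with overlapping genotypes. Loxl2 was slightly higher in KO, at 138 and 137 CPM against 129 and 124, with an adjusted p of 0.0664; 42.8% of its 100-base exon windows also occur in other genes, so its estimate depends on how shared reads were divided.

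Per length, Lox made up 68.6 and 70.2% of the summed lysyl oxidase message in KO and 73.8 and 75.5% in WT. Each of the other 4 had a larger share in both KO libraries than in either WT library. The family sum was 392 and 407 CPM per kilobase in KO and 462 and 474 in WT. The lower total thus came with a lower level of 1 gene, Lox, while none of its paralogs fell by the test.

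**Figure D3:**
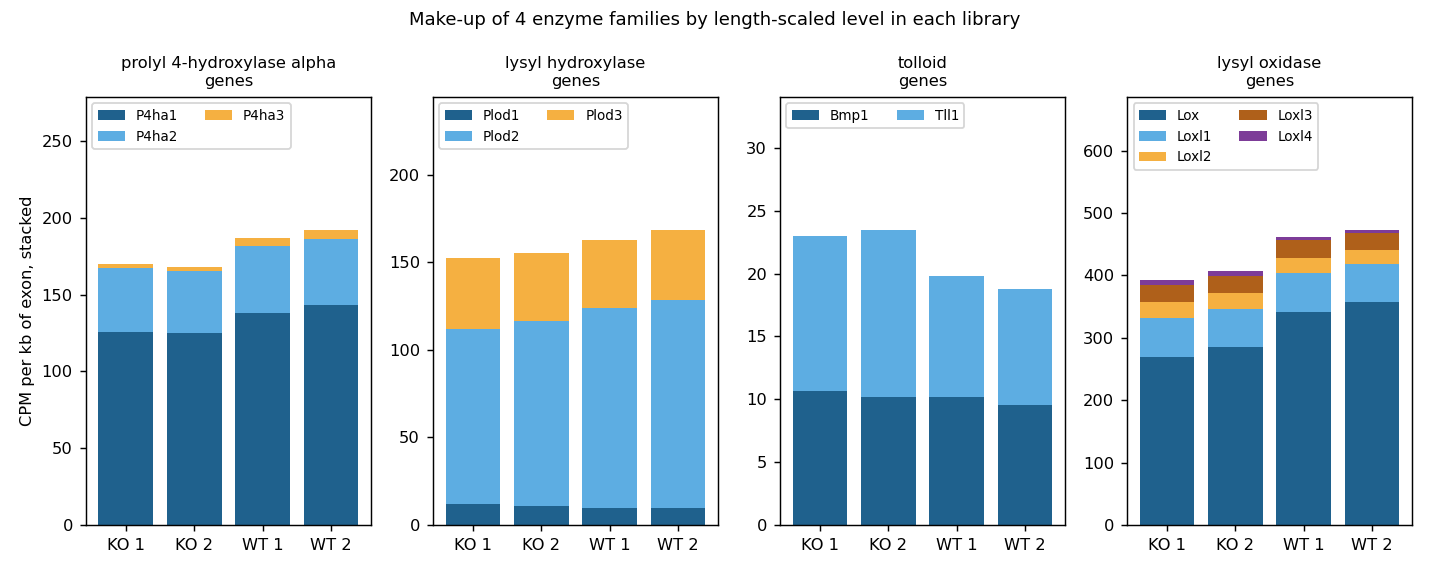
Stacked bars of the per-length level (CPM per kilobase of exon, axis from 0) of each gene in 4 enzyme families, 1 bar for each of the 4 libraries. P4ha1, Plod2 and Lox fill most of their families in every library, the lysyl oxidase bars are lower in KO (392 and 407) than in WT (462 and 474), and Tll1 takes more of the bar than Bmp1 in KO only.

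Tgm2 encodes transglutaminase 2, which crosslinks matrix proteins between glutamine and lysine side chains rather than through oxidised lysine. The gene (ENSMUSG00000037820, chr2:158116402-158146436, minus strand) was at 81.1 and 77.6 CPM in KO, against 33.0 and 40.0 in WT. The KO level was 2.17-fold that of WT (log2 fold change 1.12, SE 0.08, adjusted p = 7.40e-12), and the gap between genotypes exceeded the gap between the WT libraries. Tgm2 is also expressed by macrophages and endothelial cells, whose marker sums were higher in KO as given above, and their part in the result was not tested. Of its exon bases, 21.8% overlap genes on the opposite strand, mainly Rprd1b, and the library kit is not stated to keep strand; Rprd1b itself had a log2 fold change of -0.01 and did not pass.

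Other genes of the pathway give the setting. Of 11 fibrillar collagen chain genes 7 could be tested, and 5 fell, 0 rose and 2 did not pass, with a median log2 fold change of -0.30. Thus 71.4% passed, against 35.7% of all tested genes. Col1a2 was at 893 and 882 CPM in KO against 1227 and 1210 in WT (-0.46), Col3a1 at 337 and 324 against 481 and 465 (-0.52), Col5a2 at 552 and 561 against 689 and 679 (-0.30), and Col11a1 at 67.3 and 72.6 against 138 and 141 (-0.99). The summed fibrillar collagen message was 3056 and 3027 CPM in KO, against 3872 and 3802 in WT, a mean KO level that was 0.79 times the WT level. Ratios to that sum use CPM not scaled by length, so they are to be compared between genotypes and not between genes. Serpinh1 CPM over the collagen sum was 1.52 and 1.48 in KO and 0.50 and 0.51 in WT. For the other 33 members together the same ratio was 2.31 and 2.34 in KO and 2.00 and 2.06 in WT. Lox kept the same ratio to the collagen sum, with log2 values of -1.25 and -1.15 for both genotypes. These ratios are given without a test; an exact two-sided permutation test of 2 against 2 libraries gives no p below 0.333.

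The 34 members together took 11690 and 11580 CPM in KO and 9701 and 9758 in WT, so their sum was higher in KO. Without Serpinh1 the order turned: 7055 and 7091 CPM in KO against 7754 and 7829 in WT. Serpinh1 alone was 39.7 and 38.8% of the sum of the 34 members in KO and 20.1 and 19.8% in WT. These sums and shares are not scaled by length either.

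Of 16 other COPII and export genes 5 fell, 0 rose and 11 did not pass (median log2 fold change -0.09). Thus 31.2% passed, below the 35.7% of all tested genes (18.3% higher and 17.4% lower). The lower ones with the smallest p were Sar1a, the GTPase that starts coat assembly (-0.39), Tfg, which organises ER exit sites (-0.28), the outer-coat gene Sec13 (-0.18) and Trappc2, encoding a tethering-complex subunit (-0.31). General ER folding was represented by 21 tested genes, of which 10 fell and 1 rose (median -0.04), so that 52.4% passed. Among those that fell were Hsp90b1 (-0.26), the ER form of HSP90, the lectin chaperone gene Canx (-0.21) and the isomerase genes Fkbp9 (-0.39) and Fkbp7 (-0.49). Hspa5, which encodes the general ER chaperone BiP and was named after its values were seen, did not pass, at 3043 and 3037 CPM in KO and 3106 and 3144 in WT. The general ER folding list thus held no gene that rose beside Creld2, which was at 114 and 108 CPM in KO and 99.9 and 94.1 in WT.

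Of 14 further genes of collagen biosynthesis and assembly 13 were tested, 3 rose and 5 fell (median 0.00). Thus 61.5% passed, against 35.7% of all tested genes. Creb3l1, which encodes an ER-anchored transcription factor known to promote collagen transcription, rose from 58.4 and 54.3 CPM in WT to 84.2 and 81.9 in KO (log2 fold change 0.56). The matricellular genes Postn (-0.79) and Sparc (-0.24) and the fibronectin gene Fn1 (-0.28) fell. Because HSP47 was first found as a heat shock protein, 13 cytosolic and mitochondrial heat shock genes were added after the value of Serpinh1 had been seen. Of these, 3 were higher in KO and 5 lower (median -0.09), so that 61.5% passed. The largest rise among them was that of Hspa1a, with 99.1 and 101 CPM in KO against 70.2 and 67.6 in WT, a log2 fold change of 0.54. Its paralog Hspa1b did not pass, at 2.72 and 1.92 CPM in KO and 3.12 and 1.88 in WT. Estimated counts of both were not whole, so the values may depend on how shared reads were divided.

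Neighbouring genes were described for the 3 members that moved by at least 2-fold. Within 500 kb of Serpinh1 on chromosome 7, 10 genes were tested, of which 4 rose and 2 fell, with log2 fold changes from -0.24 to 1.52. Within 500 kb of P4ha3, less than 1 Mb away on the same chromosome, 5 of 14 rose and 4 fell, from -4.23 (Ucp2) to 1.25. Around Tgm2 on chromosome 2, 0 of 7 rose and 1 fell. Over all tested genes, 18.3% rose and 17.4% fell, and a local pattern was not tested.

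For ATAC-seq, 121748 peaks were called in the KO library and 123935 in the WT library. Peaks are the authors' calls, each with its own fold enrichment over the library's background, and 1 library per genotype gives no test. A peak overlapped the 1 kb on either side of the start site in both lists for 33 of the 34 members (97.1%, against 92.8% of all tested genes). The exception, Loxl2, had no such peak in either list at the start that GENCODE gives. The median log2 ratio of promoter peak fold, KO over WT, was 0.08 for members and 0.17 for all tested genes.

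Among members, only Loxl1 had a promoter peak whose fold differed by more than 1.5 times, 36.1 in KO and 23.4 in WT (log2 ratio 0.63), while 7.11% of all tested genes with peaks in both lists did so (6.46% higher in KO). The Loxl1 message did not pass the RNA test. For the members with the largest RNA changes, promoter peaks were close in height: Serpinh1 had a fold of 21.7 in KO and 19.3 in WT, Tgm2 9.78 and 10.7, P4ha3 7.65 and 7.39, and Adamts2 26.4 and 23.8. Tgm2 and P4ha3 had the lowest promoter peaks of the 33. Fkbp10 and P3h4, which start close together on opposite strands, shared 1 broad promoter peak, with a fold of 24.7 in KO and 25.1 in WT.

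**Figure D4:**
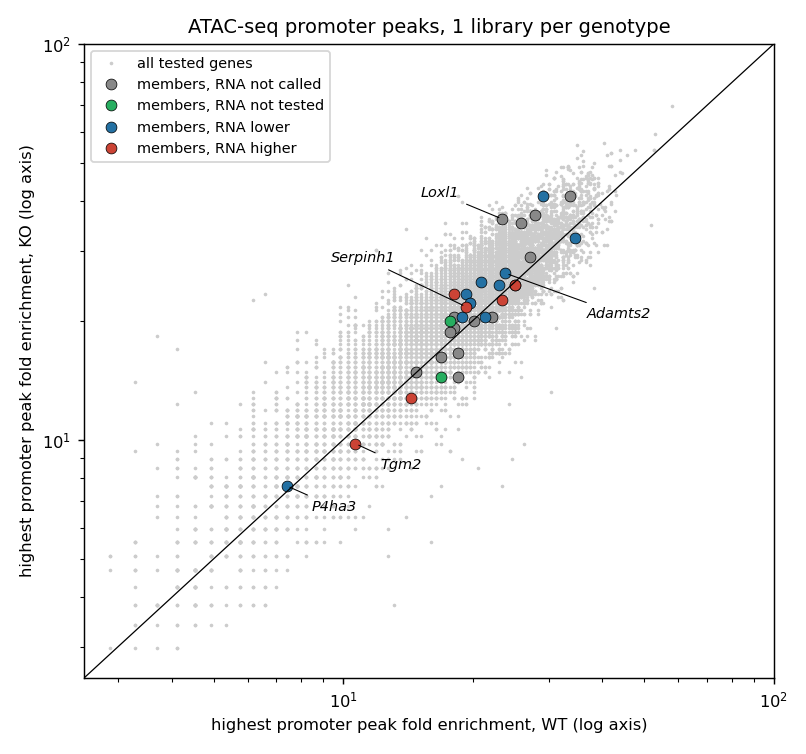
Fold enrichment of the highest promoter peak in the WT list (x axis) and the KO list (y axis), both on log axes, for members in colour by RNA call and for all tested genes in grey; the line marks equal values and 2 tested genes lie outside the axes. Serpinh1, Tgm2, P4ha3 and Adamts2 lie near the line, and Loxl1 lies farthest above it among the members.

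Over the members and 10 kb on either side, with each peak counted once, the KO list held 312 peaks, of which 69 (22.1%) overlapped no WT peak, where 23.7% of all KO peaks overlapped none. The WT list held 301 peaks, of which 58 (19.3%) overlapped no KO peak, against 24.4% of all WT peaks. The shares at members were thus slightly below those of the whole lists. All 8 KO and 7 WT peaks around Serpinh1 were present in both lists, as were the 8 peaks per list around P4ha3. Peak number differed by 5 or more between lists for 4 of the 34 members, against 448 of 12190 tested genes (3.68%). Loxl4 had 8 in KO and 2 in WT, Plod3 7 and 2, Plod1 10 and 5, and Adamts2 34 and 41. Such numbers also depend on where an open region is split into peaks, and gene length was not taken into account. KO peaks that overlapped no WT peak were 7 of the 8 around Loxl4, 5 of the 7 around Plod3 and 3 of the 10 around Plod1. Peaks found in only 1 list had a fold of at most 8.08 at any member, where the median over all peaks was 6.38 in KO and 5.75 in WT.

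Promoter sequence was available for 23 of the 34 members, as 250 bases before and 50 after the start. The letters ACGTG, read on both strands, occurred in 10 of the 23 (43.5%), against 19.6% of all 32851 promoters of the table: P4ha1, P4ha2, P4hb, Plod3, Serpinh1, Ppib, Mia3, Sec23a, Sec24d and Adamts3. Of these 10 genes 4 fell (P4ha1, P4hb, Sec23a and Sec24d), 1 rose (Serpinh1), 4 did not pass and Adamts3 was not tested. For comparison, 31.2% of all tested members fell and 18.8% rose, and 17.4% of all tested genes fell and 18.3% rose. A link between the letters and direction was not tested. The RefSeq start used lay 829 bp from the GENCODE start for P4ha2 and 2380 bp for Pcolce. Member promoters were richer in G and C (median 64.0% of the 250 bases before the start, against 52.4%), and the letters are also part of the E-box CACGTG. Other motifs were near the background: CAGAC, the SMAD box, in 12 (52.2%, against 49.6%), GGAATG, bound by TEAD factors, in 4 (17.4%, against 14.7%), and GAANNTTC, part of heat shock elements and searched after the value of Serpinh1 had been seen, in 3 (13.0%, against 7.86%). Serpinh1 was not among those 3. The ER stress element and the CArG box of serum response factor were in 0 of the 23 (0.119% and 1.63% of all promoters).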

How the data were processed

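RNA-seq (2 KO and 2 WT libraries) and ATAC-seq (1 of each) were grouped by the genotype in the labels. The authors deposited estimated counts per gene, made per the labels' protocols by trimming (Trim Galore 0.6) and alignment to mm10 with STAR 2.5.3a. Which program and gene annotation did the counting is not given in the sources used here. The protocols also speak of TPM, but totals differ between libraries and 10.8 to 12.2% of values are not whole, so the values were taken as estimated counts and rounded, where whole counts had been assumed. Such estimates share reads between similar genes. For ATAC-seq, per the labels' protocols, reads were aligned with Bowtie2 2.3 and MACS2 called peaks in each library separately. The deposited peak lists hold, per peak, the fold enrichment (a ratio to background), the −log10 p-value, the −log10 q-value and a whole-number score; scores were not used. A shift of cut sites is not mentioned there.

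The test was the quasi-likelihood F test of edgeR 4.0.16 (R 4.3.3) for genotype, after filterByExpr with a minimum count of 10 and TMM scaling, with Benjamini-Hochberg adjustment over 12192 genes at 0.05. CPM uses TMM-scaled library sizes, and each SE was taken as the size of the log2 fold change over the square root of F. Levels per length divide CPM by the exon union in GENCODE M21, where 25712 of 25746 genes were found by identifier. Promoter peaks are the highest of those overlapping the 1 kb on either side of the start, wherever their summit lies. Summits lay beyond 1 kb for Bmp1 (4844 bp in KO and 4925 in WT), Fkbp14, P4ha2 and Fkbp10 in both lists. The same held for Pcolce2 in WT (1585 bp, against 161 in KO). Peaks sharing 1 base count as shared. The fit was also run on counts simulated at the fitted spread, which cannot show whether calls hold at a wider spread.

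Members, gene lists and tests were chosen with earlier results of these data known. All members are accounted for; members that passed are given per library, the 10 with the largest change with SE and adjusted p, and of each list of other pathway genes up to 4 that passed with the smallest p. Genes named outside this rule are markers, Hspa5, Creld2, Rprd1b, Ucp2 and the heat shock genes. Alternatives were DESeq2 1.42.0, other scalings, filters and assumed spreads, unrounded values, a replicate block, leaving out each library, and other peak settings. Replicate numbers did not pair the libraries (correlation of deviations of same-numbered libraries 0.000403).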

Additional observations from a re-analysis of the deposited data

How the results depend on the processing

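The 16 members that passed kept their direction in all 15 other fits of the RNA data. Of 240 values, 203 stayed past the threshold and 37 did not. All 16 passed with the exact test of edgeR, RLE or upper-quartile factors, a minimum count of 50, unrounded values or the replicate block, and 15 with library size only or no filter. The count rests on the spread assumed. DESeq2 called 962 genes higher and 1096 lower, and 3 members higher and 9 lower. With a coefficient of variation of 0.1, the counts were 1027 and 753 genes and 3 and 2 members (Serpinh1, Tgm2, Tll1, P4ha3, Adamts2). With 0.2 they were 223 and 175 genes and 2 and 1 members (Serpinh1, Tgm2, P4ha3).

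Leaving out 1 library left 3392 to 3674 genes and 14 to 15 of the 16 members past the threshold; the lone library of a genotype is then assumed to vary like the others. The replicate block gave 2256 genes higher and 2152 lower, and 7 members higher and 10 lower, the added one being Loxl2 (adjusted p = 0.0478), which also passed with library size only (0.0296).

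Changes of sign occurred only in 4 members that did not pass, 3 of them near 0 and Adamts14, at -0.32 on few counts. Loxl1 and Loxl3 turned to -0.0049 and -0.0049 with DESeq2 and to -0.0047 and -0.0044 with RLE factors. Plod3 turned to 0.0032 with upper-quartile factors, 0.017 with library size only and 0.00030 at a minimum count of 50. With each library left out in turn, Loxl1 ranged from -0.034 to 0.032, Loxl3 from -0.033 to 0.031, Plod3 from -0.045 to 0.033 and Adamts14 from -0.91 to 0.089. The cause was not tested.

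Of the members, 0 had promoter peaks differing by 2-fold. Counts of 1 to 5 limit Colgalt2 and Adamts3, and the peak lists give no read depth.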
